A study of Mus musculus with 10 samples.

Results

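The mRNAs described here encode the machinery of polypeptide elongation and 3 abundant proteins that work beside it, and all 8 genes are known as 5′ TOP mRNAs. They are Eef1a1, Eef1b2, Eef1d, Eef1g, Eef2, Pabpc1, Tpt1 and Naca. Probe sets were taken where the platform annotation gave a single symbol equal to one of these names. That gave 11 probe sets for the 8 genes, of 10833 probe sets with a single symbol from 8251 genes. In all, 8 of the 11 probe sets, from 7 genes, passed the filter on low values and were tested among 9316 probe sets. The probe set of Eef1g and a pair of the 3 Naca probe sets did not pass it. The rule itself uses no value of the arrays.

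A 5′ TOP mRNA begins at its cap with a C that is followed by an unbroken run of pyrimidines. Most such mRNAs encode ribosomal proteins and translation factors. In growing cells they sit on polyribosomes, and in starved or growth-arrested cells they are known to move to light fractions that hold few or no ribosomes. This switch is known to depend on mTORC1, with the cap-binding protein LARP1 acting on the pyrimidine run.

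The samples were primary mouse embryonic fibroblasts, from C57/BLACK6 mice at age e14.5 and ATF1 +/- in every group, so no wild-type cells were compared. All cultures were starved for 48 h in 1% dialyzed fetal bovine serum. Serum-treated cells then got 10% serum for 2 h, and starved cells stayed 2 h more in fresh 1% serum. The arrays covered 3 RNA pools. A sucrose gradient gave polyribosome RNA, with several ribosomes per mRNA, and undertranslated RNA, with none, a ribosomal subunit or a single ribosome. Each of these pools has 2 serum-treated and 2 starved arrays, from cells given cycloheximide, which freezes ribosomes on mRNA, at 100 ug/ml for 30 min. Cytoplasmic RNA has 1 serum-treated and 1 starved array, from cells without cycloheximide. Replicate 2 of each gradient group was also labelled with 4-thiouridine at 200 uM and with tritiated cytidine, and replicate 1 was not. Fractions from different cultures were combined before each array, so the spread between replicates is that between pools and may be partly technical. Same-numbered polyribosome and undertranslated arrays may share cultures. The fits reported here have no term for the replicate number, and a fit with it as a block is among the alternatives in the closing section.

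The pools differed in brightness. Median intensity was 45.3 to 54.2 on the polyribosome arrays, 5.7 to 8.8 on the undertranslated arrays and 19.1 to 19.2 on the cytoplasmic arrays. On undertranslated arrays 43.4% to 53.5% of probe sets lay above background, the highest of 19 control probe sets for bacterial and yeast RNA that was not added. Replicates correlated across probe sets at r = 0.968 in serum-treated and 0.969 in starved polyribosome RNA, but at 0.792 in serum-treated and 0.89 in starved undertranslated RNA. The ratio of 3′ to 5′ Actb probe sets in undertranslated RNA was 23.6 and 33.9 in serum-treated and 137 and 61.4 in starved samples. It was 11.5 to 21.1 on polyribosome arrays and 11.9 and 16.6 on cytoplasmic arrays. The same ratio for Gapdh had another order, at 3.70 to 6.81 in undertranslated, 6.11 to 20.9 in polyribosome, and 28.4 and 47.0 in cytoplasmic RNA. All 9 measured fibroblast marker genes were above background on every polyribosome and cytoplasmic array, and 8 were on every undertranslated array. Their mean log2 levels were 9.32 to 9.36 in serum-treated against 8.96 to 9.17 in starved polyribosome RNA. In undertranslated RNA they were 7.77 to 8.66 in serum-treated against 7.97 to 8.30 in starved cells, and in cytoplasmic RNA 9.42 against 9.62. Mean log2 levels over 9 macrophage markers were 5.97 to 6.39 in serum-treated against 5.06 to 5.10 in starved polyribosome RNA, and 4.89 to 5.25 in serum-treated against 4.20 to 4.61 in starved undertranslated RNA. In the fit over polyribosome and cytoplasmic arrays described later, 5 of the 9 rose with serum and none fell, where 0.891% of all probe sets passed. Mean log2 levels over 7 endothelial marker genes were 4.00 to 4.07 in serum-treated against 3.63 to 3.77 in starved polyribosome RNA, with 5 against 4 genes above background, and 4.05 to 4.40 in serum-treated against 3.46 to 3.58 in starved undertranslated RNA. Over 6 epithelial marker genes they were 3.30 to 3.53 in serum-treated against 2.47 to 2.75 in starved polyribosome RNA, with 5 against 1 or 2 genes above background, and 3.60 to 4.34 in serum-treated against 2.95 to 3.28 in starved undertranslated RNA. The endothelial markers Eng and Pecam1 and the epithelial marker Cdh1 were above background on 10 of 10 arrays, and Cdh5, Tie1 and Epcam on 0 of 10. What part these differences have in the results below was not tested.

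A pyrimidine run at the cap defines these mRNAs, so the longest run near each annotated start is shown. A run found this way need not be the one at the cap. RefSeq windows from GRCm38.p6 covered 5 of the 8 genes, Eef1a1, Eef1b2, Eef2, Tpt1 and Naca. For Eef1d, Eef1g and Pabpc1 no sequence is shown. The search covered 50 bases before to 50 after the annotated gene start. It took the longest run that opens with C and goes on in pyrimidines, with no least length set. Capitals mark that run in the 30 bases printed for each gene, 5′ to 3′ on the gene's strand.
Eef1a1 (chr9:78481710-78481739, minus strand): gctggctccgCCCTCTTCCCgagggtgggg
Eef2 (chr10:81176636-81176665, plus strand): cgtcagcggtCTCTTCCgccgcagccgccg
Tpt1 (chr14:75845276-75845305, plus strand): cggtgacgtagccgagcgtgCCCTCTatat
Eef1b2 (chr1:63176851-63176880, plus strand): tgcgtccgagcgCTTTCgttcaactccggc
Naca (chr10:128035331-128035360, plus strand): gcaactcgttCTCTTaaagaggaaacccgg

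The Eef1a1 run was 10 bases long and opened 5 bases before the annotated start. A run at least that long was found in 14.4% of all 32851 windows. The run of Eef2 had 7 bases and opened at position 16, a length that 40.7% of windows reached. Tpt1 had 6 bases opening at position 41 (58.1% of windows). Runs of Eef1b2 and Naca had 5 bases, a length 77.1% of windows reached, opening at position 33 in Eef1b2 and 5 bases before the start in Naca. None of the 5 had a C with 4 pyrimidines exactly at the annotated start, against 2.51% of all windows. An annotated start may differ from the cap of the mRNA in these cells, so a missing match says only that these letters are not at that position. The motif TATAA was present on the gene's strand in 2 of the 5 windows, those of Eef1a1 and Eef2, and in 6.81% of all windows. It opened at position 26, after the annotated start, in Eef1a1 and 15 bases before the start in Eef2. On the other strand 0 of 5 held it, against 4.53% of all windows.

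**Figure D1:**
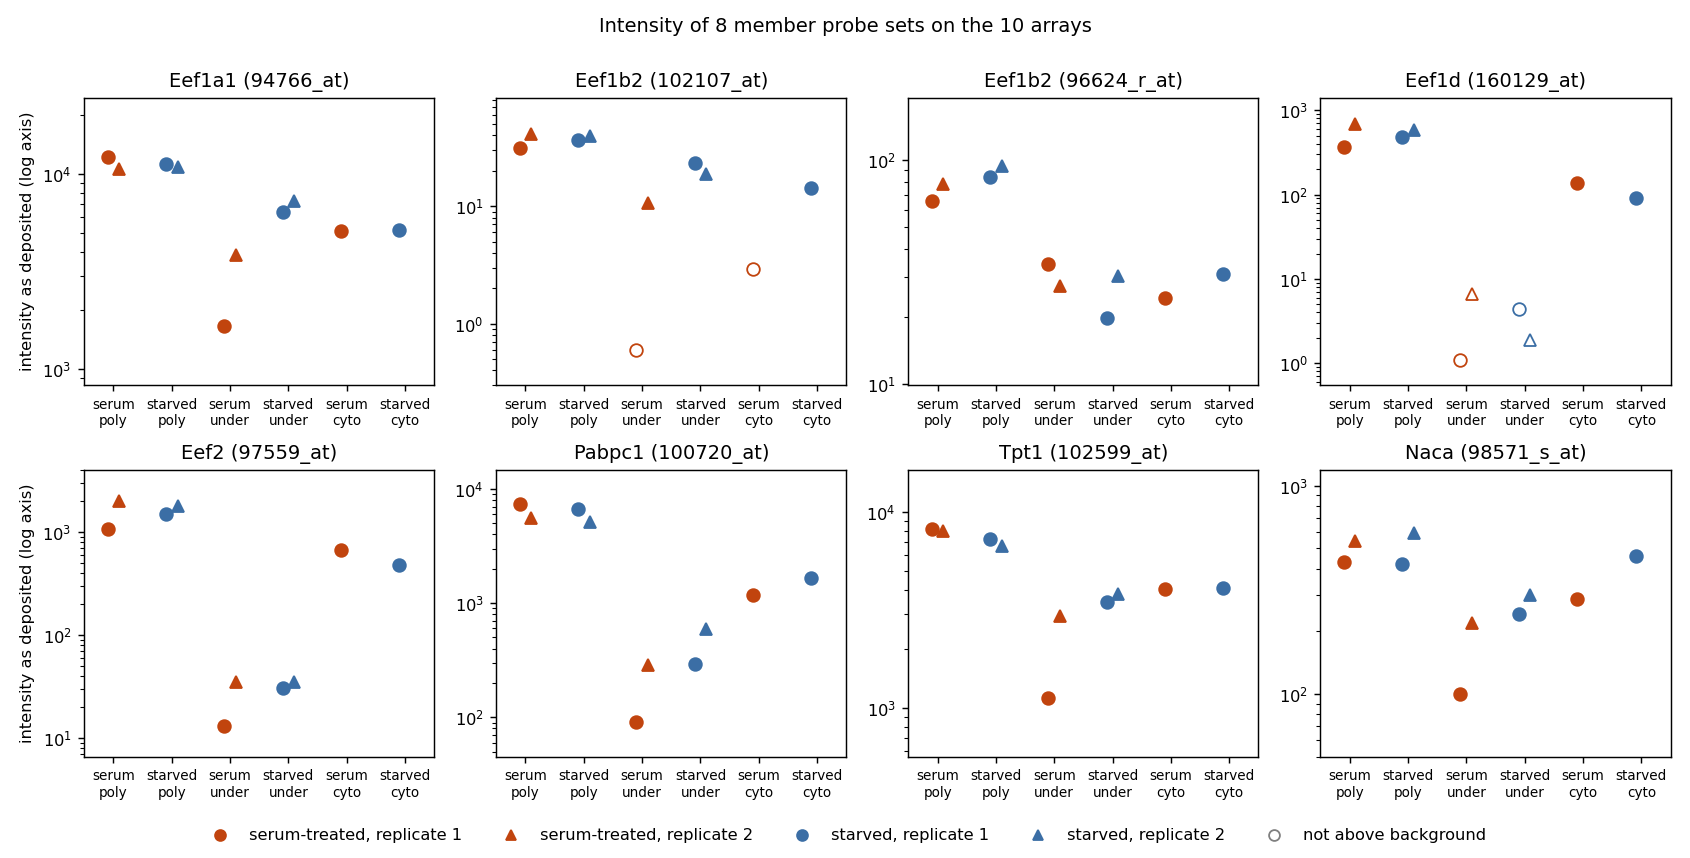
Intensity as deposited (log axis) of the 8 tested probe sets in serum-treated (orange) and starved (blue) polyribosome, undertranslated and cytoplasmic RNA. Circles are replicate 1, triangles replicate 2 and open symbols values not above background. Serum-treated undertranslated RNA lies below starved undertranslated RNA for Eef1a1, Tpt1 and Naca, while all 4 undertranslated values of Eef1d are open. The median intensity of the undertranslated arrays was 5.7 and 8.0 in serum-treated against 7.6 and 8.8 in starved cells. After quantile normalisation Naca was instead higher in serum-treated undertranslated RNA, and Tpt1 and Pabpc1 overlapped.

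Eef1a1, the GTPase that brings aminoacyl-tRNA to the ribosome, lies on chromosome 9 at 78478453 to 78481724 (GRCm38.p6, as for all positions here). Its probe set had intensities of 12157.1 and 10579.6 in serum-treated polyribosome RNA, against 11202.7 and 10773.2 in starved polyribosome RNA. In undertranslated RNA it had 1658.8 and 3846.3 in serum-treated cells, against 6374.4 and 7272.4 in starved cells. The 4 polyribosome values overlapped between the serum states, whereas both serum-treated undertranslated values were below both starved ones. Median intensity on the undertranslated arrays was itself 5.7 and 8.0 in serum-treated against 7.6 and 8.8 in starved cells. Intensities here and for the genes below are as deposited, and how many of all probe sets show such orders was not counted. Cytoplasmic RNA gave 5098.1 in serum-treated and 5143.5 in starved cells, nearly equal. Eef1a1 has a close paralog, Eef1a2, and many processed copies in the genome, and signal from these cannot be told apart here.

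Eef1b2 encodes a subunit that recharges Eef1a1 with GTP, and it lies on chromosome 1 at 63176831 to 63180486. It has 2 tested probe sets. The ordinary one read 31.2 and 41.5 in serum-treated against 36.5 and 39.8 in starved polyribosome RNA. In undertranslated RNA it read 0.6, which is below background, and 10.6 in serum-treated cells, against 23.1 and 18.7 in starved cells. Its cytoplasmic value was 2.9 in serum-treated cells, below background, and 14.2 in starved cells. The polyribosome values overlapped, and the serum-treated undertranslated ones were lower than the starved ones. The other has the maker's suffix r, for relaxed rules of probe choice, and is called the r probe set here. It behaved differently. It had 65.4 and 78.4 in serum-treated against 84.0 and 94.1 in starved polyribosome RNA, with the serum-treated values the lower. Undertranslated values were 34.3 and 27.3 in serum-treated against 19.8 and 30.3 in starved cells and overlapped. Cytoplasmic values were 24.3 in serum-treated and 30.9 in starved cells. Across the 10 arrays the quantile-normalised levels of both Eef1b2 probe sets correlated at r = -0.09, a description only. After this scaling the gene has no single profile.

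Eef1d encodes another GTP-exchange subunit of the same complex and lies on chromosome 15 at 75894796 to 75909784. Its intensity was 370.4 and 695.7 in serum-treated against 483.2 and 579.3 in starved polyribosome RNA. In undertranslated RNA it was 1.1 and 6.6 in serum-treated against 4.4 and 1.9 in starved cells, none of them above background. Cytoplasmic RNA had 136.7 in serum-treated and 92.0 in starved cells. The polyribosome values overlapped between the serum states, and of the gradient pools only polyribosome RNA gave a measurable signal. Eef1g, the scaffold subunit of the complex (chromosome 19, 8967041 to 8978180), was not above background on any array. Its probe set read 0.6 and 3.5 in serum-treated against 2.8 and 4.4 in starved polyribosome RNA, and 0.6 to 2.1 on the other 6 arrays.

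Eef2, the GTPase that moves the ribosome along by a codon, lies on chromosome 10 at 81176631 to 81182509. It had 1085.7 and 2020.7 in serum-treated against 1500.6 and 1785.3 in starved polyribosome RNA. In undertranslated RNA it had 13.2 and 35.1 in serum-treated against 30.6 and 34.8 in starved cells. Values of the serum states overlapped in both gradient pools, and every undertranslated value was far below every polyribosome value. Cytoplasmic RNA had 680.4 in serum-treated and 476.2 in starved cells.

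Pabpc1 encodes the cytoplasmic poly(A)-binding protein, which links the tail of an mRNA to its cap complex, and lies on chromosome 15 at 36595658 to 36609581. Its intensity was 7328.6 and 5591.6 in serum-treated against 6680.5 and 5157.4 in starved polyribosome RNA. In undertranslated RNA it was 90.1 and 289.5 in serum-treated against 290.8 and 594.0 in starved cells. Polyribosome values overlapped, and the higher serum-treated undertranslated value fell just short of the lower starved one. Cytoplasmic RNA had 1177.0 in serum-treated and 1660.0 in starved cells.

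Tpt1 encodes the translationally controlled tumour protein, a growth-linked protein that binds the elongation factor, and lies on chromosome 14 at 75845256 to 75848303. Polyribosome RNA had 8186.9 and 7936.5 in serum-treated against 7267.8 and 6716.1 in starved cells, and undertranslated RNA had 1121.1 and 2935.3 in serum-treated against 3457.8 and 3809.4 in starved cells. Serum-treated values were above starved ones on polyribosomes and below them in undertranslated RNA, with no overlap in either. After quantile normalisation the undertranslated log2 levels overlapped, at 12.15 and 12.11 in serum-treated against 12.18 and 12.11 in starved cells. Cytoplasmic values were 4031.7 in serum-treated and 4063.6 in starved cells. As with Eef1a1, the cytoplasmic values hardly differed.

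Naca encodes the alpha subunit of the nascent polypeptide-associated complex, which meets new chains at the ribosome's exit, and lies on chromosome 10 at 128035346 to 128048637. Of its 3 probe sets only the one with suffix s, which marks probes shared by several transcripts, was above background, and it stands for Naca below. It had 430.3 and 539.3 in serum-treated against 420.7 and 594.5 in starved polyribosome RNA, and 100.0 and 219.0 in serum-treated against 241.6 and 298.9 in starved undertranslated RNA. The polyribosome values overlapped, and the undertranslated values were lower in serum-treated cells. After quantile normalisation this order was reversed, with undertranslated log2 levels of 9.86 and 9.77 in serum-treated against 9.66 and 9.59 in starved cells. Cytoplasmic RNA had 286.0 in serum-treated and 456.8 in starved cells. The other Naca probe sets read 0.6 to 7.6 and 0.1 to 1.5 over the 10 arrays, never above background.

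The first comparison placed each mRNA between polyribosomes and the undertranslated part of the gradient within a serum state. The mRNAs of the set did not share a position. Eef1d, Eef2 and Pabpc1 were higher on polyribosomes relative to the array distribution, and Naca was lower, in both serum states. The difference below is polyribosome minus undertranslated on log2(intensity + 1.5) after quantile normalisation, here called the split, tested with limma in 1 fit over the 8 gradient arrays (2 per group) with Benjamini-Hochberg adjustment over all 9316 probe sets. Because the polyribosome arrays are far brighter than the undertranslated ones, a split of 0 means the same rank on both arrays, not an equal amount of RNA.

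In serum-treated cells 4 of 8 probe sets were higher and 2 lower, where 43.9% of all probe sets passed the test, 23.5% higher and 20.5% lower. Eef1d averaged a log2 level of 7.17 on polyribosomes and 3.01 in undertranslated RNA (limma adjusted p = 0.00328). As all its undertranslated values were below background, the difference is stated as at least 5.25-fold higher. This bound takes, on each undertranslated array, the higher of the probe set's own level and the lowest level above background. The split of Eef2 was 1.88 ± 0.46 (SE, limma adjusted p = 0.0125), that of Pabpc1 1.31 ± 0.25 (0.00393) and that of Eef1a1 0.56 ± 0.10 (0.00361). Naca was lower on polyribosomes at -2.69 ± 0.29 (limma adjusted p = 0.000526), as was the Eef1b2 r probe set at -2.59 ± 0.49 (0.0041). Tpt1 at -0.30 ± 0.13 (limma adjusted p = 0.0911) and the ordinary Eef1b2 probe set at 0.94 ± 0.97 (0.456), with 1 of its 2 undertranslated values below background, did not pass.

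In starved cells 3 of 8 were higher and 2 lower, where 28.3% of all probe sets passed, 14.6% higher and 13.7% lower. Eef1d averaged 7.10 on polyribosomes and 2.90 in undertranslated RNA and was at least 7.54-fold higher on polyribosomes (limma adjusted p = 0.0053). Eef2 stood at 1.81 ± 0.46 (limma adjusted p = 0.0213) and Pabpc1 at 1.03 ± 0.25 (0.0166). Those lower on polyribosomes were Naca at -2.59 ± 0.29 (limma adjusted p = 0.00098) and Tpt1 at -0.58 ± 0.13 (0.0134). Eef1a1 at 0.11 ± 0.10 (limma adjusted p = 0.442), the ordinary Eef1b2 probe set at -1.96 ± 0.97 (0.163) and its r probe set at -1.31 ± 0.49 (0.0767) did not pass. The median of the 8 splits was 0.75 in serum-treated and -0.24 in starved cells, against 0.10 and 0.00 over all probe sets in the same order of states, and it is the same with Eef1d at its bound. The starved count of 5 was 2 without starved undertranslated replicate 1, 2 without either starved polyribosome array, 3 without starved undertranslated replicate 2, and 7 without either serum-treated undertranslated array.

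**Figure D2:**
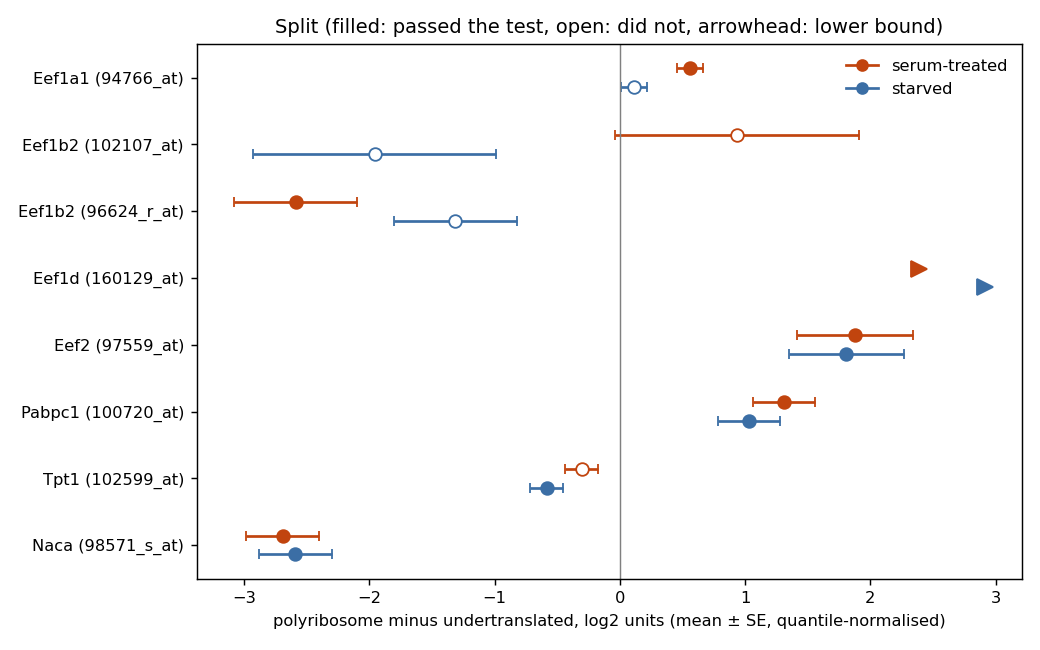
Split of each tested probe set between polyribosome and undertranslated RNA (log2 units after quantile normalisation, mean ± SE from limma, 2 arrays per group) in serum-treated (orange) and starved (blue) cells. Filled points passed the test and open points did not, and the arrowheads of Eef1d are lower bounds, since its undertranslated values were below background. Eef1d, Eef2 and Pabpc1 lie right of 0 and Naca left of 0 in both states, and Eef1a1 lies at 0.56 in serum-treated and 0.11 in starved cells.

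Eef1a1 needs a separate reading. It was the second brightest probe set on all 4 polyribosome arrays, so quantile normalisation gave it a log2 level of 12.92 on each of them. It ranked 11 and 9 from the brightest on the serum-treated and 3 on both starved undertranslated arrays. Its polyribosome level after this scaling therefore cannot move between the serum states. The starved undertranslated replicates likewise both got 12.81, and both cytoplasmic arrays, where it ranked 4, got 12.73. Among its gradient groups only the serum-treated undertranslated replicates differed, with an SD of 0.07. The SE and p-values of Eef1a1 thus draw mainly on the spread that limma takes from other probe sets.

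Relative to the median of all probe sets, which is the same for intensities as deposited, after median centring and after scaling by 9 hybridization control probe sets, the positions were partly different. Eef2, at 2.82 in serum-treated and 2.76 in starved cells, and Pabpc1, at 2.11 and 0.99, lay above the median split as they did after quantile normalisation. Eef1a1 lay below it, at -1.02 in serum-treated and -2.14 in starved cells, although its quantile-normalised splits were above 0. Tpt1 at -1.03 in serum-treated and -1.88 in starved cells and Naca at -1.49 and -1.94 lay below it, as after quantile normalisation. The median split itself was 0.10 in serum-treated and 0.00 in starved cells after quantile normalisation, 0.66 and 0.42 after median centring, 3.18 and 2.83 as deposited, and 3.30 and 3.33 with control scaling. The counts of calls follow this. As deposited, 8 members were higher and 0 lower in serum-treated cells (7995 higher and 29 lower of all probe sets), and 4 higher and 0 lower in starved cells (7983 and 30). After median centring, 3 were higher and 1 lower in serum-treated cells (3877 and 1496 of all probe sets), and 3 higher and 3 lower in starved cells (3232 and 1277). In intensity as deposited each of the 8 probe sets was brighter on the polyribosome arrays, and the words higher and lower for Tpt1, Naca, Eef1a1 and Eef1b2 hold relative to the other mRNAs.

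The next comparison asked whether serum moves these mRNAs between the gradient parts, the behaviour that 5′ TOP mRNAs are known for. The shift is the split in serum-treated cells minus that in starved cells. No member passed the test. In the same fit 0 of 9316 probe sets passed (0.0%), 720 had an unadjusted p under 0.05 and the smallest adjusted p was 0.442. Eef1a1 had a shift of 0.45 ± 0.15 (limma unadjusted p = 0.0143, adjusted p = 0.558) and was the only member with an unadjusted p under 0.05. The other shifts were 0.28 ± 0.19 for Tpt1 (limma adjusted p = 0.736), 0.28 ± 0.35 for Pabpc1 (0.834), 0.07 ± 0.65 for Eef2 (0.983) and -0.10 ± 0.41 for Naca (0.955). Both Eef1b2 probe sets had shifts of opposite sign, 2.90 ± 1.38 for the ordinary one (limma adjusted p = 0.665) and -1.27 ± 0.70 for the r probe set (0.711). For Eef1d no shift is read, since its undertranslated values were below background in both states.

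The shift rests on the serum-treated undertranslated arrays, the dim pair that agreed least. Without replicate 2 of that group both Eef1b2 probe sets passed, and 902 of all probe sets did, with the spread of the array left in the group taken from the other groups. The r probe set then stood at -1.97 (limma adjusted p = 0.0388). For the ordinary one (limma adjusted p = 0.0116) no size is read, since the array left, at 0.6, was below background. Without replicate 1 they stood at 1.13 (limma adjusted p = 0.452) and -0.57 (0.66), and 1 of all probe sets passed. The shift of Eef1a1 was 0.50 without replicate 2 and 0.39 without replicate 1 (limma adjusted p = 0.138 and 0.433), that of Tpt1 0.26 and 0.30, and that of Pabpc1 0.43 and 0.12.

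The intensities themselves were set against each other as polyribosome over undertranslated ratios, a description chosen after the data were seen. The ratios take arrays of the same number, and nothing but the number pairs them. Eef1a1 had ratios of 7.33 and 2.75 in serum-treated against 1.76 and 1.48 in starved cells. Tpt1 had 7.30 and 2.70 in serum-treated against 2.10 and 1.76 in starved cells. Naca had 4.30 and 2.46 in serum-treated against 1.74 and 1.99 in starved cells. Pabpc1 had 81.3 and 19.3 in serum-treated against 23.0 and 8.68 in starved cells, and Eef2 had 82.2 and 57.6 in serum-treated against 49.0 and 51.3 in starved cells. The Eef1b2 r probe set had 1.91 and 2.87 in serum-treated against 4.24 and 3.11 in starved cells. Taken by number, the ratios of Eef1a1, Tpt1, Naca and Eef2 were higher in serum-treated cells without overlap. Those of the Eef1b2 r probe set were lower and those of Pabpc1 overlapped. How many of all probe sets show such an order by number was not counted. Divided by the median ratio of all probe sets for the same arrays, those of Naca and Eef2 overlapped and those of Pabpc1 were higher. The ratios of Eef1d, 337 and 105 in serum-treated against 109.8 and 305 in starved cells, divide by values below background. So does 1 of the ratios of the ordinary Eef1b2 probe set, which had 52.0 and 3.92 in serum-treated against 1.58 and 2.13 in starved cells, and no order is read for either probe set.

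To be free of the numbering, every polyribosome array was also divided by every undertranslated array of its serum state. This was done for the 6 member probe sets above background on all 8 gradient arrays. Serum-treated ratios were then higher without overlap for 2 of 6, where 19.4% of the 3781 probe sets above background on those arrays were higher and 2.67% lower. These were Eef1a1, at 2.75 to 7.33 in serum-treated against 1.48 to 1.76 in starved cells, and Tpt1, at 2.70 to 7.30 in serum-treated against 1.76 to 2.10 in starved cells. Naca overlapped, at 1.97 to 5.39 in serum-treated against 1.41 to 2.46 in starved cells, as did Eef2, at 30.9 to 153 in serum-treated against 43.1 to 58.3 in starved cells. Pabpc1 and the Eef1b2 r probe set overlapped too.

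The median ratio of all tested probe sets also differed between array pairs, at 14.85 and 8.42 in serum-treated against 10.2 and 6.60 in starved cells. Each ratio was therefore also divided by the median ratio of its own combination of arrays. Eef1a1 then lay at 0.327 to 0.494 in serum-treated against 0.172 to 0.224 in starved cells. Tpt1 lay at 0.308 to 0.516 in serum-treated against 0.205 to 0.267 in starved cells, and Pabpc1 at 2.29 to 5.48 in serum-treated against 1.31 to 2.25 in starved cells. These 3 of 6 were higher without overlap, as were 16.9% of the 3781 probe sets, and 0 of 6 were lower, as were 11.7%. The other 3 overlapped. With 2 arrays per group this order is not tested by itself, and the limma test of the shift was not passed under any of the 4 scalings. Relative to the median of all probe sets, the shift was 1.13 for Eef1a1 as deposited and 0.38 after quantile normalisation, 1.13 and 0.21 for Pabpc1, and 0.86 and 0.21 for Tpt1. For Naca it was 0.45 as deposited and -0.16 after quantile normalisation, so its direction depends on the scaling.

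**Figure D3:**
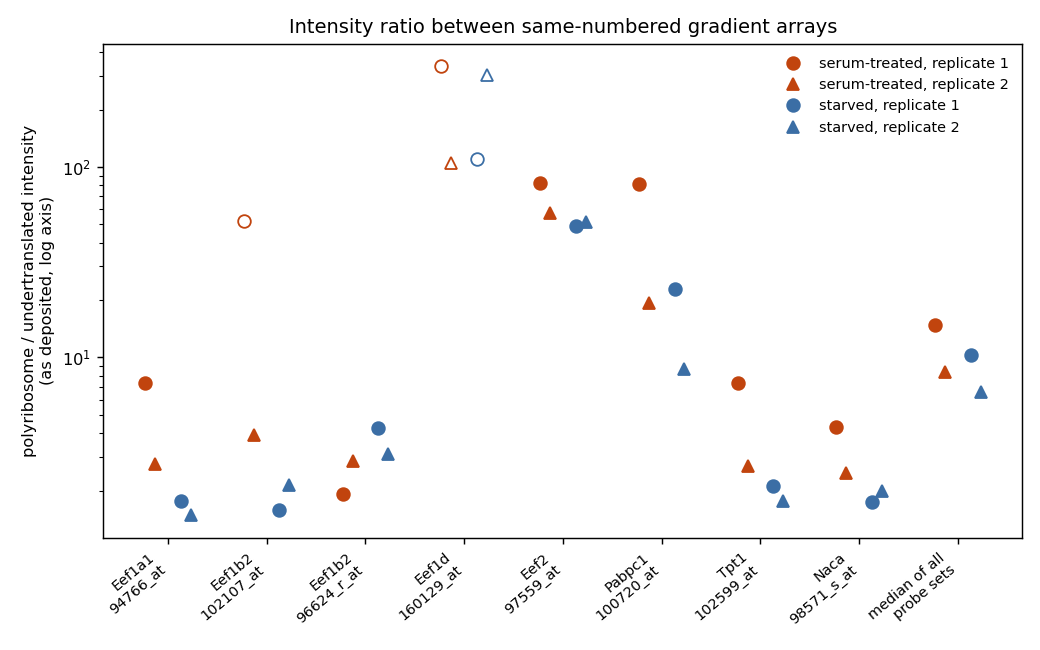
Ratio of polyribosome to undertranslated intensity, as deposited, of same-numbered arrays (log axis) for each tested probe set and for the median of all tested probe sets, in serum-treated (orange) and starved (blue) cells. Circles are replicate 1, triangles replicate 2 and open symbols ratios whose undertranslated value was not above background. Paired by number, both serum-treated ratios lie above both starved ones for Eef1a1 (7.33 and 2.75 against 1.76 and 1.48), Tpt1 and Naca. The median of all probe sets is 14.85 and 8.42 against 10.2 and 6.60, and divided by it the ratios of Naca overlap.

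**Figure D4:**
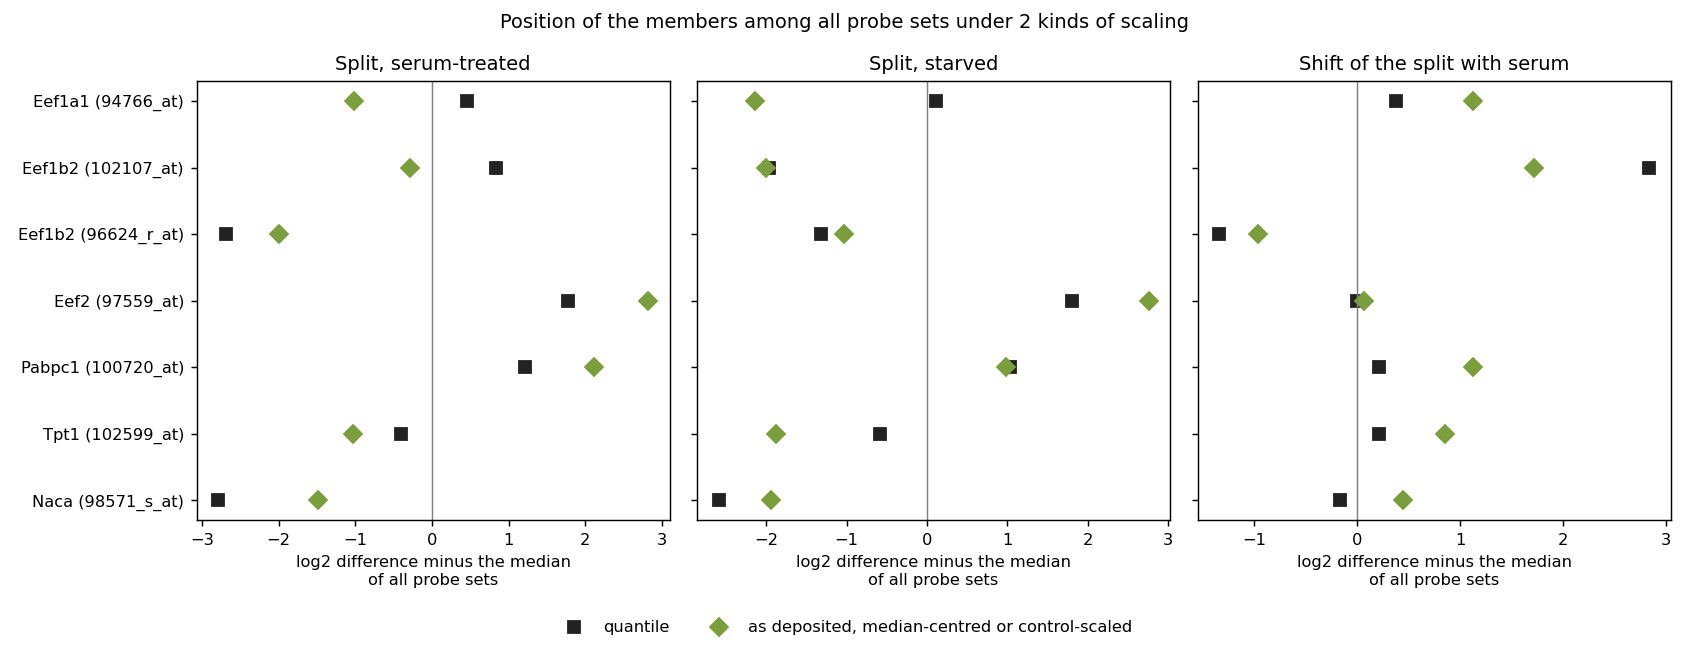
Difference of each tested probe set minus the median of all probe sets (log2 units), for the split in serum-treated cells, the split in starved cells and the shift of the split with serum. Eef1d is left out, since its undertranslated values were below background. Black squares are quantile-normalised values, and green diamonds stand for intensities as deposited, median-centred or control-scaled, which give the same position. Eef1a1 lies at 0.46 after quantile normalisation and -1.02 otherwise in serum-treated cells, and its shift lies right of 0 under both at 0.38 and 1.13.

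Serum was then compared with starvation inside each pool. On polyribosomes, where Tpt1 alone of the 8 had normalised levels that did not overlap between the states (33.6% of all probe sets), no member passed and 0 of 9316 probe sets did (0.0%, with 161 at an unadjusted p under 0.05 in limma). No member had an unadjusted p under 0.05. Tpt1 stood at 0.26 ± 0.13 (limma adjusted p = 1), Eef1a1 at 0 ± 0.10, fixed by its rank, and the others at -0.13 to 0.09. In undertranslated RNA no member passed, where 1.07% of all probe sets did, and 3 of the 8 had an unadjusted p under 0.05 in limma. Normalised levels did not overlap between the states for 4 of 8 probe sets, those of Eef1a1, Eef1b2 and Naca, where 42.6% of all probe sets did not. Eef1a1 stood at -0.45 ± 0.10 (limma adjusted p = 0.0822), the ordinary Eef1b2 probe set at -2.90 ± 0.97 (0.174) and its r probe set at 1.14 ± 0.49 (0.262). Pabpc1 stood at -0.24 ± 0.25 (limma adjusted p = 0.604), Naca at 0.19 ± 0.29 (0.738), Tpt1 at -0.02 ± 0.13 (0.956) and Eef2 at -0.09 ± 0.46 (0.926). For Tpt1 and Naca the intensities as deposited were lower in serum-treated cells, on arrays whose median intensity was 5.7 and 8.0 in serum-treated against 7.6 and 8.8 in starved cells, so the difference depends on the scaling. Without serum-treated undertranslated replicate 2, Eef1a1 passed at -0.50 (limma adjusted p = 0.0483), as did the Eef1b2 r probe set at 1.84 (0.0113), with the spread of the lone array taken from the other groups. The ordinary Eef1b2 probe set passed too (limma adjusted p = 0.00199), with no size read because its value on the array left was below background. Without replicate 1 of that group none did, with Eef1a1 at -0.39 (limma adjusted p = 0.178).

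In the 6-array fit over polyribosome and cytoplasmic RNA, with the pool as a factor, no member passed or had an unadjusted p under 0.05 in limma, and 0.891% of all probe sets passed. The estimates ran from -0.60 ± 0.36 for the ordinary Eef1b2 probe set (limma adjusted p = 0.575) to 0.26 ± 0.27 for Eef1d (0.765). The cytoplasmic pair has no replicate and no test. There serum-treated minus starved was 0.68 for Eef2 and 0.62 for Eef1d, 0 for Eef1a1 and -0.03 for Tpt1, and -0.52 for Pabpc1 and -0.56 for Naca. The 0 of Eef1a1 follows from its rank of 4 on both arrays. Of the Eef1b2 probe sets, the r one stood at -0.24, and the ordinary one, below background in serum-treated cells, was at least 1.03-fold lower. In bulk RNA a change in the share of cells that hold an mRNA and a change in its amount per cell cannot be told apart.

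Cytoplasmic RNA gave a second view of loading, from the mean of both serum states and with the cytoplasmic spread taken from the gradient groups. All gradient arrays came from cells given cycloheximide and the cytoplasmic arrays from cells without it. In this and the next paragraph, differences by RNA pool and by this drug therefore cannot be told apart. Polyribosome minus cytoplasmic RNA passed for 1 of 8 higher, Pabpc1 at 0.95 ± 0.21 (limma adjusted p = 0.046), and for 1 of 8 lower, Tpt1 at -0.55 ± 0.11 (0.0303). Here 4.55% of all probe sets passed, 2.49% higher and 2.06% lower. Neither call was made after median centring, where Pabpc1 stood at 0.87 and Tpt1 at -0.37, and 0 or 1 of the 2 were made without any single polyribosome or starved undertranslated array. Naca at -1.02 ± 0.26 (limma adjusted p = 0.0702), Eef1d at 0.61 ± 0.64 (0.722), Eef2 at -0.16 ± 0.40 (0.914) and Eef1a1 at 0.19 ± 0.08 (0.274) did not pass.

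Undertranslated minus cytoplasmic RNA passed for 2 of 8 higher and 2 of 8 lower, where 42.4% of all probe sets passed, 20.5% higher and 21.9% lower. Naca was higher at 1.63 ± 0.26 (limma adjusted p = 0.00192), as was the Eef1b2 r probe set at 2.10 ± 0.43 (0.00591). Eef2 was lower at -2.0 ± 0.40 (limma adjusted p = 0.0052), and Eef1d was at least 4.11-fold lower (0.00325). Eef1a1 at -0.14 ± 0.08 (limma adjusted p = 0.209), Tpt1 at -0.10 ± 0.11 (0.476), Pabpc1 at -0.22 ± 0.21 (0.433) and the ordinary Eef1b2 probe set at 1.46 ± 0.85 (0.197) did not pass. For Naca and the Eef1b2 r probe set the sign again depends on scaling, since with control scaling all 8 probe sets were lower in undertranslated RNA.

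Other 5′ TOP mRNAs on the arrays were counted beside these genes. The lists are counted and not tested, and their counts in this and the next paragraphs stand beside the 43.9% of all probe sets that passed in serum-treated and the 28.3% in starved cells. The ribosomal protein list left out genes named Rpl with only 1 digit, so it covers part of that family. Of its 25 tested genes, 8 were higher and 7 lower on polyribosomes in serum-treated cells, and 3 higher and 6 lower in starved cells. Their median splits were 0.05 in serum-treated and -0.48 in starved cells. None of the 25 passed the test of the shift, whose median was 0.33 against 0.06 over all probe sets. Of 20 tested genes with reported TOP mRNAs outside the ribosomal proteins, 4 were higher and 3 lower in serum-treated cells, and 2 higher and 3 lower in starved cells. Their median split was 0.49 in serum-treated and 0.10 in starved cells, and their median shift 0.35 with none past the test. The initiation factor 3 subunits Eif3l at 1.52 ± 0.40 (limma adjusted p = 0.0229) and Eif3a at 1.43 ± 0.35 (0.0189) were the higher ones in starved cells. Eef1a2, the elongation factor of muscle and nerve, at -2.22 ± 0.53 (limma adjusted p = 0.0171) and Eif3f at -1.71 ± 0.48 (0.029) led the lower ones. Over the 8 tested member probe sets the median shift was 0.17. That median counts both Eef1b2 probe sets and the Eef1d shift that is not read, whereas the lists count 1 probe set per gene.

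Factors of elongation, termination and tRNA charging that are not reported as TOP mRNAs gave 13 tested genes. Of these 3 were higher and 3 lower in serum-treated cells, and 0 higher and 2 lower in starved cells, with a median shift of 0.03 and none past its test. The rescue factor Pelo, at -2.99 ± 0.41 in serum-treated (limma adjusted p = 0.00112) and -2.61 ± 0.41 in starved cells (0.00346), and the GTPase Gtpbp1, at -2.76 ± 0.39 (0.00122) and -2.20 ± 0.39 (0.00539) in the same states, led the lower ones. Tars, the threonine tRNA synthetase, was higher in serum-treated cells at 2.32 ± 0.52 (limma adjusted p = 0.00815).

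Genes that regulate TOP mRNAs gave 20 tested of 21 on the arrays. Of these 5 were higher and 5 lower on polyribosomes in serum-treated cells, where 43.9% of all probe sets passed, and 2 higher and 2 lower in starved cells, where 28.3% did. The kinase Akt1, upstream of mTORC1, was at least 3.12-fold higher on polyribosomes in serum-treated cells and at least 4.7-fold higher in starved cells. Mtor itself was at least 3.04-fold higher in serum-treated cells, and Rragc, which brings mTORC1 to lysosomes, was higher by 1.46 ± 0.20 in starved cells (limma adjusted p = 0.0024). Paip2, an inhibitor of the poly(A)-binding protein, was lower at -2.10 ± 0.29 in serum-treated (limma adjusted p = 0.00113) and -2.22 ± 0.29 in starved cells (0.0018). Tsc1, an mTORC1 inhibitor, was lower at -2.11 ± 0.60 in serum-treated cells (limma adjusted p = 0.0217), and the cap-binding repressor Eif4ebp2 at -1.01 ± 0.31 in starved cells (0.0426). No regulator passed the test of the shift or of serum in any pool that was tested. Their median serum response in undertranslated RNA was -0.32, against -0.04 over all probe sets, and on polyribosomes it was -0.05 against -0.01.

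Quantile-normalised levels of the members did not run together. Over the 10 arrays, which share pools and scaling, Eef1d and Eef2 correlated at r = 0.96, and Tpt1 and Naca at 0.74. Pabpc1 and Tpt1 correlated at -0.85, and Naca and Eef1d at -0.91. As deposited, each of the 8 tested probe sets was brighter on polyribosome than on undertranslated arrays. These signs therefore hold after quantile normalisation, and correlations of the deposited intensities were not computed. All undertranslated values of Eef1d were below background, which limits what its correlations say. Eef1d and Eef2 were higher on polyribosomes in both states, as was Pabpc1, which correlated with them at 0.70 and 0.55. Tpt1 and Naca had splits below 0 in both states, as did the Eef1b2 r probe set. That probe set correlated with Naca at 0.85 and with Tpt1 at 0.41. The splits of Tpt1 in serum-treated cells and of the r probe set in starved cells did not pass the test. The genes outside the set whose level was most like the mean of the 8 members, Eef1g included, over the 10 arrays were Eif3l (r = 0.90), Hsp90aa1 (0.88), Tmem141 (0.88), Galk2 (0.88) and Cpe (0.87). That mean takes in Eef1g, which was never above background, and the undertranslated values of Eef1d, which were not either. All these correlations are descriptions over arrays of 3 RNA pools.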

How the data were processed

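The authors deposited 1 intensity value per probe set and array on a linear scale for 12488 probe sets and 10 arrays. Per the labels' protocols, cDNA was amplified linearly and biotin-labelled for Affymetrix arrays. How probes were summarised or scaled is not given in the sources used. Genes were named from the platform annotation and matched by Entrez gene to a RefSeq table of GRCm38.p6.

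After 66 controls were left out, log2(intensity + 1.5), with the 10th percentile as pseudocount, was quantile-normalised, since array medians differed by 2.95 log2 units. Only the 9316 probe sets whose mean level exceeded the 25th percentile were tested. limma 3.58.1 in R 4.3.3 (lmFit, eBayes with a trend) fitted the 8 gradient arrays with 4 residual degrees of freedom, 6 polyribosome and cytoplasmic arrays with 3, and all 10 arrays for comparisons with cytoplasmic RNA. All p-values are two-sided and adjusted by Benjamini-Hochberg, with a threshold of 0.05. The number of arrays limits the precision. The fits were tested on simulated data.

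The members, gene lists and tests were chosen with earlier results of these data known. All members' probe sets are named, and of the other lists at most the 2 largest passing changes each way per comparison. Pdk1 was taken off the regulator list after the data were seen, because it had been entered for another gene. Lists were counted, not tested. Alternatives changed the scaling, pseudocount, filter, variance trend, replicate block and each array left out. Seeing the data led to a further alternative, ratios over all combinations of arrays.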

Additional observations from a re-analysis of the deposited data

How the results depend on the processing

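Of 1040 alternative values for single member probe sets, 866 kept direction and side of the threshold, 24 came to pass, 37 no longer passed, 91 moved without a call, and 22 changed sign where at least 1 of the settings passed the test, all with another scaling. A further 61 values changed sign, 24 with another scaling and 37 with an array left out. Among these only the Eef1b2 r probe set in undertranslated against cytoplasmic RNA, at -0.0002 as deposited, had passed before. It is counted outside the 22 although it meets their rule. Of the 22, those in the starved split were Tpt1 at 0.94, Eef1b2 r at 1.80 and Naca at 0.89 as deposited, Eef1a1 at -1.71 after median centring, and ordinary Eef1b2 at 1.33, Tpt1 at 1.45, Eef1b2 r at 2.30 and Naca at 1.40 with control scaling. In the serum-treated split they were Tpt1 at 2.15, Eef1b2 r at 1.19 and Naca at 1.69 as deposited, Eef1a1 at -0.36 after median centring, and Tpt1 at 2.27, Eef1b2 r at 1.31 and Naca at 1.81 with control scaling. Polyribosome against cytoplasmic RNA turned for Tpt1 at 0.89 and Eef2 at 1.45 as deposited. Undertranslated against cytoplasmic RNA turned for Naca at -0.85 as deposited, Eef1a1 at 0.90 after median centring, and ordinary Eef1b2 at -1.55, Eef1b2 r at -1.90 and Naca at -2.75 with control scaling. These scalings do not give the arrays 1 common distribution, as quantile normalisation does. The 5 members past the test of the starved split became 3 without a variance trend, and 2 to 7 with each array left out in turn. Counts with an array left out ranged from 5 to 7 for the serum-treated split, 0 to 2 for the shift, 0 to 3 for the serum response in undertranslated RNA, 0 to 3 for polyribosome and 4 to 5 for undertranslated against cytoplasmic RNA. The shift with 2 and the serum response in undertranslated RNA with 3 both came without serum-treated undertranslated replicate 2. The 2 members of polyribosome against cytoplasmic RNA became 5 as deposited, 0 with median centring, control scaling, no filter or no variance trend, and 1 with the replicate block, and the 4 of undertranslated against cytoplasmic RNA became 8 with control scaling. Over all probe sets, the starved split called 2632, against 8013 as deposited, 4509 after median centring and 8658 with control scaling, and the serum-treated split 4094, against 8024 as deposited and 8172 with control scaling. The shift called 0, against 902 without serum-treated undertranslated replicate 2. Serum on polyribosomes called 0, against 5 after median centring, and in undertranslated RNA 100, against 22 as deposited, 12 with control scaling and 52 with the replicate block. The fit over polyribosome and cytoplasmic RNA called 83, against 24 without a filter, 19 without a trend and 149 with the block. Polyribosome against cytoplasmic RNA called 424, against 5929 as deposited, 1187 after median centring and 50 without a trend, and undertranslated against cytoplasmic RNA 3946, against 9061 with control scaling. With each array left out, these counts ran from 729 to 4242 for the starved split, 1811 to 5192 for the serum-treated split, 0 to 2302 for serum in undertranslated RNA, 5 to 118 for polyribosome and cytoplasmic RNA, and 135 to 1209 for polyribosome against cytoplasmic RNA. Deviations of same-numbered arrays correlated at 0.28 between the polyribosome groups and 0.02 to 0.05 between other groups. The main fits therefore did not take the numbers as pairs. The replicate block and the same-numbered ratios did use them. Intensity ratios over all combinations of arrays, an alternative chosen after seeing the data, kept 2 of the 4 members above background whose same-numbered ratios were higher without overlap. The share of all probe sets with that order by number was not counted. The replicate block changed no other count of members past the test. A cytoplasmic array could not be left out of the comparisons against cytoplasmic RNA, and without it the 6-array fit rests on polyribosome arrays. Dim undertranslated arrays limit what can be read for Eef1d and Eef1b2. The cause of the other changes was not tested.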
